A study of Mus musculus with 20 samples.

Results

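Erythroblasts were set against the stem and progenitor cells from which they descend, in the bone marrow of wild-type mice on a placebo diet, and the genes gained and lost between both populations were counted and described. The comparison used 6 of the 20 libraries of the series, 3 of erythroblasts and 3 of KSL cells, chosen by population, genotype and diet alone. All 6 came from male wild-type 129S4 mice that were 4 months old after 3 months on placebo food. The erythroblast gate was Ter119+, CD71-high and FSC-high, which holds large, transferrin-receptor-rich cells named proerythroblasts and basophilic erythroblasts in the series' design, and each library came from 1 mouse. KSL cells carry cKit and Sca1 and lack lineage antigens, and each KSL library pooled the cells of 5 mice. Both populations passed 2 rounds of sorting. A further 6 wild-type libraries (3 of each population), from mice that ate oxymetholone at 300 mg/kg of food for the same time, share no library with the placebo comparison and served as a second set. Oxymetholone is an androgen used in marrow failure, and the series was built around Fancd2-/- mice, a model of Fanconi anemia, which enter none of the values below.

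Red cell formation begins when a progenitor loses its stem cell receptors and factors such as GATA2, comes under GATA1, KLF1 and erythropoietin, and then divides a few last times while it fills with hemoglobin. Iron enters through the transferrin receptor, heme is completed in mitochondria, and a spectrin skeleton is laid under a membrane dominated by band 3. The nucleus and organelles are removed at the end of the same programme.

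The erythroblast libraries held 17177255, 19766739 and 19999813 counted reads, and the KSL libraries 35549395, 121347124 and 10777291. Of 20377 gene symbols, 12538 had enough reads to be tested, and the others are not described. Levels are in CPM (a gene's share of the counts of its library, scaled to a common total) after TMM scaling, fold changes are log2 of erythroblasts over KSL with their standard error (SE), and a gene was called at an edgeR adjusted p under 0.05. In all, 11404 genes were called (91% of those tested), 4665 higher in erythroblasts (37.2%) and 6739 lower (53.7%). At least 4-fold changes were called for 2055 genes higher (16.4%) and 4535 lower (36.2%). The libraries of both groups did not overlap for 91.7% of genes. These shares are the background for each gene group: a group in which most genes were called is no exception, and only its direction and size set it beside all genes, whose median log2 change was −0.67. TMM scaling matters here, and counts were spread over fewer genes in erythroblasts than in KSL cells. The 10 leading genes held 14.3% to 15.5% of counts in erythroblasts and 3.99% to 4.66% in KSL cells. The 1000 leading genes held 69.3% to 70.9% and 41.6% to 42.9%. With globin genes left out of totals and TMM, the median log2 change over all genes was −0.665. How far these shares set the effect of scaling was not tested. Scaling by library totals alone lowered the median log2 change over all genes by a further 1.41, and 20.5% of calls were then higher in erythroblasts, against 40.9% with TMM. A gene with a positive change below about that size may therefore be higher only relative to the scaled bulk of genes. Fewer cells of a kind and less RNA per cell cannot be told apart in such libraries, nor can the population be separated from the pooling (5 mice against 1).

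Libraries stood apart in 3 ways that touch results below. KSL replicate 3 held more globin counts than the other KSL libraries, with 0.0107% of its counts from globin genes against 0.00177% and 0.00103% in replicates 1 and 2. Erythroblast replicate 1 was high in class I antigen presentation genes, described with that group. Long transcripts were favoured in erythroblast libraries, where log2 CPM rose by 0.354 to 0.407 each time length doubled, while the slope in KSL libraries lay between −0.016 and 0.123. With genes in 4 equal classes of length, the median change was −0.90 in the shortest class and 0.24 in the longest. The sort markers checked the labels. Tfrc, which encodes CD71, stood at 7362, 6628 and 6607 CPM in erythroblasts and at 20.9, 26.9 and 23.6 CPM in KSL cells. Kit was at 0.49, 0.32 and 0.50 CPM in erythroblasts and at 372, 401 and 474 CPM in KSL cells. Ly6a, which encodes Sca1, was at 0.20, 0 and 0.33 CPM against 140, 166 and 98.3 CPM. These 3 genes were used to sort the cells and are not results.

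**Figure D1:**
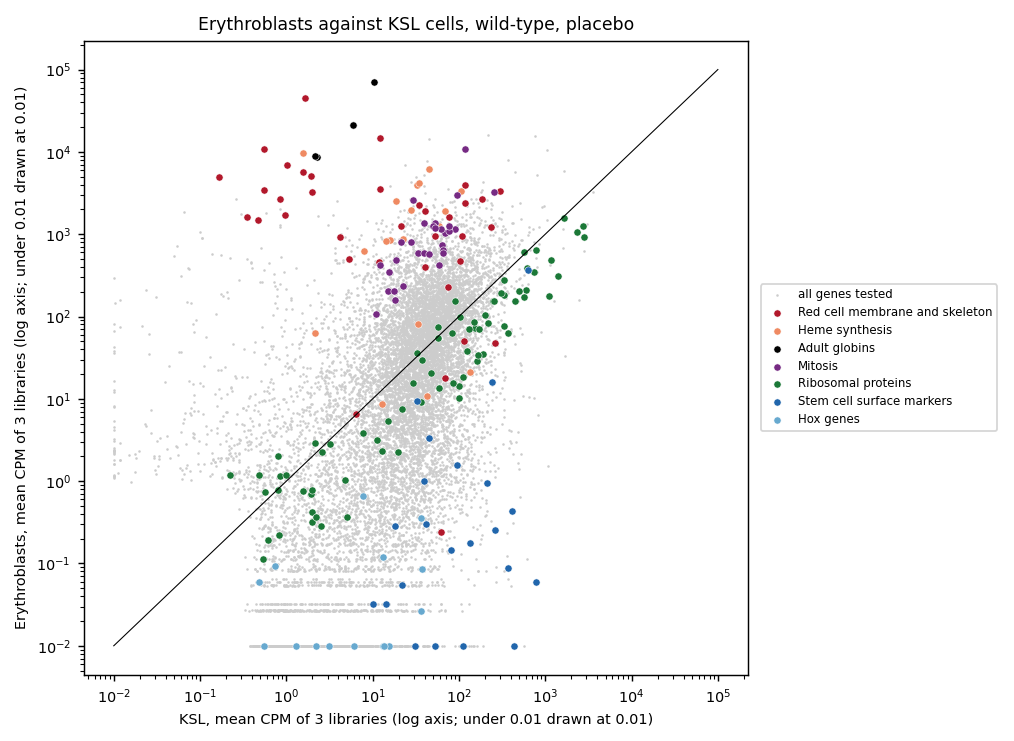
Each grey point is 1 of the genes tested, placed by its mean CPM in KSL cells (x, log axis) and in erythroblasts (y, log axis), 3 libraries each, with 7 gene groups coloured and the line of equal levels drawn. The 5 adult globin rows and most membrane genes lie above the line, the Hox and stem cell surface genes tested lie below it, and ribosomal protein genes mostly just below it.

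Hemoglobin genes led the gain. Beta-s, an adult beta-globin chain, stood at 78150, 65050 and 71330 CPM in erythroblasts, against 5.44, 3.06 and 22.5 CPM in KSL cells (log2 change 12.85 ± 1.32 SE, edgeR adjusted p = 0.000569). The groups did not overlap, and the highest KSL value was that of replicate 3. Hba-a1, an adult alpha chain, was at 23060, 19490 and 20910 CPM in erythroblasts, against 1.68, 1.18 and 14.9 CPM in KSL cells. Its change of 12.03 became 13.90 without KSL replicate 3 and 11.44 without replicate 2, and that of Beta-s became 14.07. Hba-a2 has the same counts as Hba-a1, and Hbb-b1 and Hbb-b2 are likewise near-identical, so the rows of each pair are not separate evidence. All 5 adult globin rows in the table were higher, with a median of 12.38. The theta-like gene Hbq1b was at 150, 139 and 147 CPM in erythroblasts and at 0, 0.031 and 0 CPM in KSL cells. The embryonic gene Hbb-bh1 stayed near the floor of detection, at 0.88, 1.20 and 1.24 CPM in erythroblasts and 0 in all KSL libraries. At the alpha-globin locus, Nprl3, whose introns hold the enhancers of the alpha genes, rose by 2.49, and Mpg beside it by 1.51. Rhbdf1, on the far side of Mpg, fell by 3.55, so that 6 of 10 tested genes of the neighbourhood were higher and 4 lower (4 and 5 under library totals).

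The enzymes of heme synthesis were higher in erythroblasts, apart from the form of the entry step that other tissues use. Alas2, the erythroid 5-aminolevulinate synthase, was at 10680, 8789 and 9307 CPM in erythroblasts and at 0.67, 0.33 and 3.65 CPM in KSL cells (13.22 ± 1.25 SE, edgeR adjusted p = 0.00042), and no libraries overlapped. Its change was 14.39 without KSL replicate 3 and 12.42 without replicate 2. Alas1, that other form, was at 12.2, 11.0 and 9.17 CPM in erythroblasts and at 44.6, 42.7 and 41.6 CPM in KSL cells, and was 4-fold lower. Among the cytosolic enzymes, Urod rose by 4.78, Alad by 4.97 and Uros by 5.87. Alad, which makes porphobilinogen, reached 3312, 3204 and 3394 CPM in erythroblasts, against 121, 107 and 87.3 CPM in KSL cells. The late mitochondrial steps rose by 4.43 (Tmem14c) to 7.09 (Fech, which inserts the iron). Of 18 heme genes tested, 15 were higher and 3 lower, with a median of 5.51 against −0.67 over all genes. Of the 15, Blvra turned lower under library totals. The 3 lower genes were Alas1, Hmox2 (a constitutive heme oxygenase) and Mfsd7b (the heme exporter Flvcr1).

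Iron genes mostly rose, those of uptake as well as those of storage and export. Slc25a37, mitoferrin, which carries iron into mitochondria, was at 15630, 13660 and 14220 CPM in erythroblasts and at 40.8, 50.8 and 44.6 CPM in KSL cells (8.32 ± 0.18 SE, edgeR adjusted p = 4.51e-15). Steap3, the endosomal ferrireductase, rose by 6.10, and Slc11a2, which moves iron out of the endosome, by 5.30. The iron exporter Slc40a1 (ferroportin) also rose, to 289, 313 and 301 CPM, against 6.09, 5.596 and 6.45 CPM. Both ferritin chains were higher, Fth1 by 2.69 and Ftl1 by 1.53. The sensors changed little by comparison: Ireb2 rose by 1.69 and Fbxl5, which degrades it, averaged 19.6 CPM against 59.4 CPM. Of 21 tested iron genes, 18 were higher and 3 lower (Fbxl5, Hfe and Slc25a28), with a median of 1.68. Under library totals 10 were higher and 8 lower, with a median of 0.265. Of the 18, Tfrc is a sort marker, and Aco1 (0.35), Pcbp2 (0.54), Iscu (0.82), Pcbp1 (0.94) and Nfs1 (0.95) turned lower under library totals.

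Most genes of the red cell membrane and its skeleton were higher in erythroblasts, several of them from levels near 0 in KSL cells. Slc4a1, band 3, the anion exchanger that anchors the skeleton, stood at 46830, 41080 and 47640 CPM in erythroblasts, against 0.26, 0.23 and 4.41 CPM in KSL cells (15.46 ± 1.83 SE, edgeR adjusted p = 0.00104). KSL replicate 3 set much of that error, and without it the change was 17.49 (14.85 without replicate 1, 14.60 without replicate 2). Spnb1, beta spectrin, was at 10940, 10390 and 11460 CPM against 0.39, 0.27 and 1.02 CPM (14.75 ± 0.40 SE, edgeR adjusted p = 1.26e-11). No libraries overlapped for these genes. Ank1, Epb4.2, Add2, Kel, Rhd, Rhag and Ermap behaved in the same way: their lowest erythroblast value was 1440 CPM (Add2), and their highest KSL value 3.18 CPM (Ermap). Of 36 membrane genes tested, 31 were higher and 4 lower, with a median of 5.72. The lower genes were Cd44 (−2.48), the adducin Add3 (−1.95), Tpm3 (−1.21) and Slc2a1. Slc2a1, the glucose transporter GLUT1, was at 0.39, 0 and 0.33 CPM in erythroblasts and at 62.0, 63.3 and 60.2 CPM in KSL cells (−8.06 ± 0.29 SE, edgeR adjusted p = 5.25e-13; −7.42 without erythroblast replicate 2). In human red cells GLUT1 is an abundant membrane protein. Cd59a did not pass the test (6.60 CPM against 6.45 CPM on average). Transporters of other cargo rose, among them Aqp1, the water channel, by 10.22, and Slc16a1, which carries lactate, by 6.04.

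Promoters of 10 erythroid genes that rose were read. The 4 shown were picked after reading them, because each holds a word of the form AGATAA, to which GATA1, the main erythroid GATA factor, binds, so they do not stand for the others. Each is read from the mm9 genome, 5′ to 3′ on the strand of the gene, from 250 bases before to 50 bases after the transcript start that the deposited table gives. Capitals mark AGATAA or its reverse complement TTATCT, and the erythroid KLF word CCACACCC or its reverse complement.
Beta-s, chr7:110976393-110976692 (- strand): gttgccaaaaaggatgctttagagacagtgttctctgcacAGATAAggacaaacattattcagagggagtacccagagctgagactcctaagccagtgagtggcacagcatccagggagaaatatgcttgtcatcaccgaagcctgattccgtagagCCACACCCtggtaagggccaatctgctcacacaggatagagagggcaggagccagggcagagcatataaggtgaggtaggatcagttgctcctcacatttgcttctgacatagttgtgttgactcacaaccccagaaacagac
Alas2, chrX:146981710-146982009 (+ strand): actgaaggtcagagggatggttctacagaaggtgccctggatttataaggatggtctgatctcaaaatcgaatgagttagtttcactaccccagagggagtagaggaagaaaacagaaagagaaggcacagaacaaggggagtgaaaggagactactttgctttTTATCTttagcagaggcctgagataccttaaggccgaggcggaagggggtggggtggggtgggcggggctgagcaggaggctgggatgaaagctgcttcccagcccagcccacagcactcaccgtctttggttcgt
Slc4a1, chr11:102226546-102226845 (- strand): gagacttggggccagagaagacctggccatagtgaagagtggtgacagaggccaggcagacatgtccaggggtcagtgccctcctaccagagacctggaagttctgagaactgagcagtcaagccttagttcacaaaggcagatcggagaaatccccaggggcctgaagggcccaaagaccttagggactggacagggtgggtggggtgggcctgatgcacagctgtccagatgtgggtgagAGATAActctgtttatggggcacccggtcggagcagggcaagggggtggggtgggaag
Epor, chr9:21767971-21768270 (- strand): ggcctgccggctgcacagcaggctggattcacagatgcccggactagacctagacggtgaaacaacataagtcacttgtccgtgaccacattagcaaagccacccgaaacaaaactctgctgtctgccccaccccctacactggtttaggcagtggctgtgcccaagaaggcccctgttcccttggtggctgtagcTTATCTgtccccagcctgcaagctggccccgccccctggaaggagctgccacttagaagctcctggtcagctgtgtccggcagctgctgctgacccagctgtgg
Each of the 4 windows held 1 AGATAA word, and that of Beta-s also held 1 CCACACCC word. Of those not shown, the window of Trim10 held 1 AGATAA word, and that of Add2 held 1 of each. The windows of Hba-a1, Klf1, Rhag and Epb4.2 held neither. AGATAA or its reverse complement was in 6.33% of 2055 promoters of genes at least 4-fold higher, in 6.39% of 4535 promoters of genes at least 4-fold lower and in 6.04% of all 12538. CCACACCC on either strand was in 3.94%, 4.15% and 3.74% of the same promoters. The ETS-type word GGAAGTG on either strand was in 11.6%, 11.6% and 14.7%. Only these exact letters were searched. Other forms of a GATA word, such as TGATAA in the window of Hba-a1, were not counted, so a window without AGATAA may hold another form. A word is a match of letters, not a bound site, and words elsewhere in a gene were not counted.

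Enzymes of the mature red cell divided by pathway. Car2, carbonic anhydrase, reached 17440, 15410 and 14420 CPM in erythroblasts, against 728, 678 and 856 CPM in KSL cells (4.39 ± 0.16 SE, edgeR adjusted p = 5.5e-13). Bpgm, which makes the 2,3-bisphosphoglycerate that lowers the oxygen affinity of hemoglobin, rose by 4.32. All 9 genes for peroxide and glutathione defence were higher, from 0.33 (Gsr) to 4.50 (Prdx2), a median of 3.33. Sod1 (0.46) and Gsr turned lower under library totals. Of 16 glycolysis and pentose phosphate genes, 4 were higher and 12 lower (2 and 13 under library totals), with a median of −2.82. Pklr, the red cell pyruvate kinase, was at 121, 159 and 155 CPM in erythroblasts, against 1.23, 0.63 and 0.38 CPM in KSL cells (7.53 ± 0.29 SE). Pkm2, the form of dividing cells and most tissues, was at 5.57, 3.36 and 3.72 CPM in erythroblasts and at 424, 389 and 335 CPM in KSL cells (−6.52 ± 0.18 SE). Per kilobase of the longest annotated transcript, erythroblasts held 49.9 CPM of Pklr and 1.90 CPM of Pkm2, while KSL cells held 0.257 CPM of Pklr and 172 CPM of Pkm2. Hexokinase showed the same turn, with Hk1 at 2.95 and Hk2 at −5.53 (−6.24 without erythroblast replicate 1). Ldha (−4.21), Ldhb (−8.18, and −9.68 without erythroblast replicate 2), Gpi1 (−4.52), Aldoa (−3.19) and Tpi1 (−2.45) were lower. Gapdh, which has many processed copies in the genome, averaged 0.0276 CPM in erythroblasts and 0.208 CPM in KSL cells and was not tested, so levels of genes with such copies are uncertain here.

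**Figure D2:**
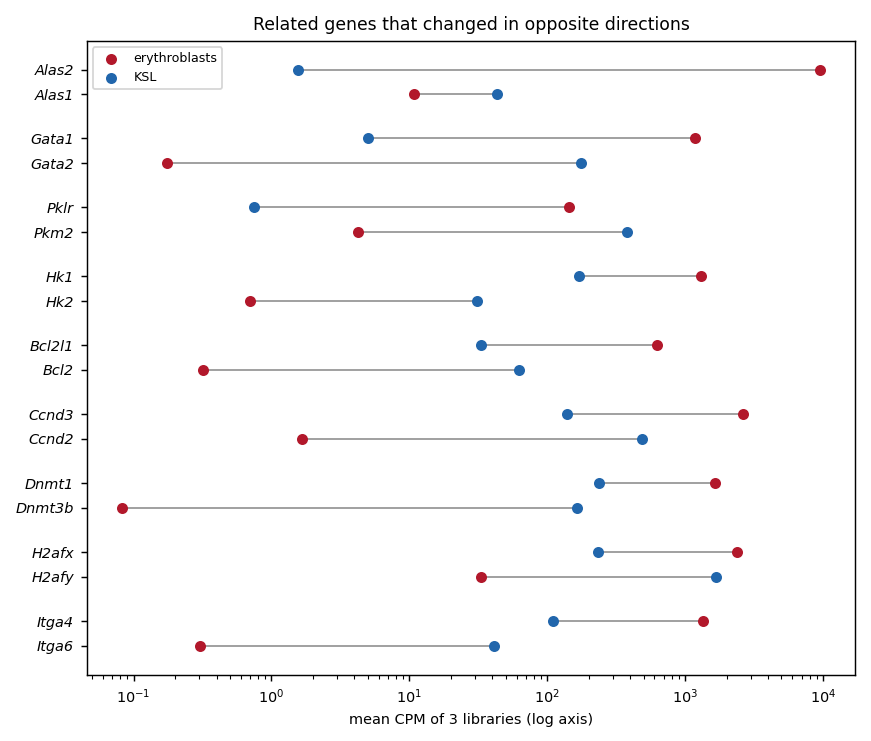
Mean CPM of 3 libraries (log axis) in erythroblasts (red) and KSL cells (blue) for 9 pairs of related genes. In each pair the upper gene was higher in erythroblasts and the lower gene was higher in KSL cells.

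Erythroid transcription factors were mostly higher and those of stem cells mostly lower. Gata1, the main erythroid GATA factor, was at 1253, 1169 and 1148 CPM in erythroblasts, against 6.23, 3.85 and 5.05 CPM in KSL cells (7.90 ± 0.19 SE, edgeR adjusted p = 1.12e-14). Gata2, its relative in stem cells, was at 0.20, 0.16 and 0.17 CPM in erythroblasts and at 170, 169 and 193 CPM in KSL cells (−9.99 ± 0.21 SE, edgeR adjusted p = 3.33e-15). No libraries overlapped for either. Klf1 reached 2816, 2570 and 2301 CPM against 5.84, 4.00 and 1.88 CPM. Among the partners of GATA1, Zfpm1 (FOG1) rose by 4.99 and Tal1 by 4.22. Lmo2 (0.52) and Ldb1 (0.80), which bridge the complex, were higher with TMM scaling and lower under library totals. Foxo3 rose by 7.05, Gfi1b by 4.34 and Sox6, a silencer of embryonic globin genes, by 4.41. Of 23 erythroid factors tested, 18 were higher and 5 lower (14 and 8 under library totals), with a median of 3.30. The lower genes were Myb, Stat5a, Stat5b, Bcl11a and the corepressor Cbfa2t3. Myb, which holds progenitors in proliferation, was at 9.67, 9.67 and 9.67 CPM in erythroblasts and at 351, 467 and 471 CPM in KSL cells.

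Of 34 stem and progenitor factors tested, 31 were lower and 3 higher, with a median of −5.19. Meis1, a partner of HOX proteins, had no count in the erythroblast libraries and stood at 138, 144 and 150 CPM in KSL cells. A count of 0 in all 3 erythroblast libraries allows up to 0.0861 CPM (3 counts over the group), so Meis1 was at least 1676-fold lower. By the same limit Nkx2-3 was at least 1516-fold and Mycn at least 1415-fold lower. Hlf was at 0, 0.16 and 0 CPM in erythroblasts and at 355, 401 and 431 CPM in KSL cells. Hhex, Fli1 and Mecom were each below 1 CPM in every erythroblast library. Etv6 fell by 5.48, and Runx1, required at the origin of blood stem cells, by 0.47. Lymphoid and myeloid factors were lower as well, among them Satb1 (−7.42), Gfi1 (−6.49), Sfpi1, which encodes PU.1 (−4.91), and Cebpa (−4.04). The 3 higher genes were Ikzf1 (1.36), Lyl1 (0.55) and Nfe2l2 (0.48), and each of them turned lower under library totals. Hox genes were uniform: all 15 tested, 7 of the A and 8 of the B cluster, were lower by at least 4-fold. Their median was −9.04 as fitted and −6.13 with the 8 genes at 0 in erythroblasts set to their limit. Hoxa9 was at 0.49, 0.32 and 0.25 CPM in erythroblasts and at 37.5, 35.7 and 36.6 CPM in KSL cells, and Hoxb4 was at 0 in all 3 against 11.98, 17.1 and 11.2 CPM. No gene of the C or D cluster passed the filter on low counts.

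**Figure D3:**
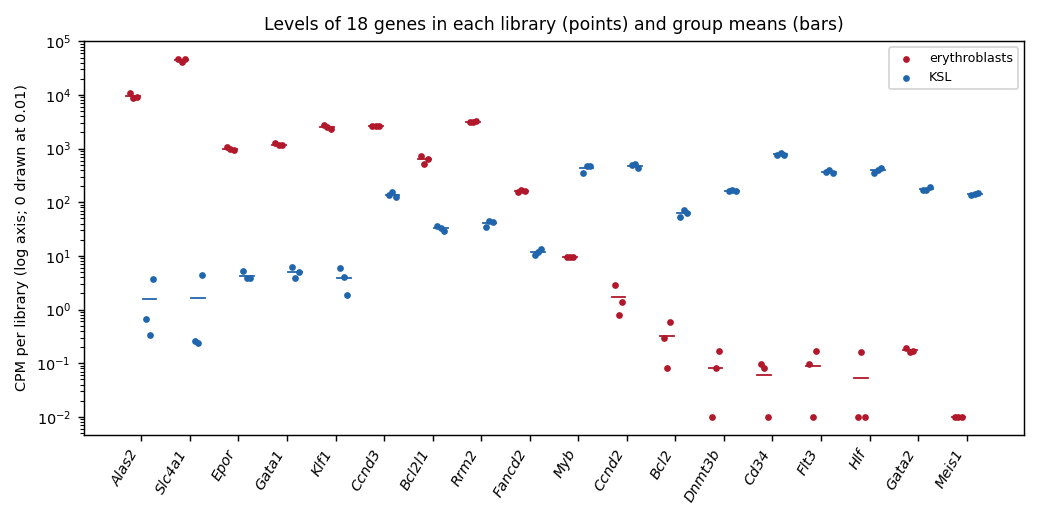
CPM of 18 genes in each of 3 erythroblast (red, left) and 3 KSL (blue, right) libraries, on a log axis with 0 drawn at 0.01 and bars at group means. The red and blue points of a gene do not overlap for any of the 18, and KSL replicate 3 is the high point for Alas2 and Slc4a1.

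Surface receptors of stem cells were lower in erythroblasts. Cd34 was at 0.10, 0.08 and 0 CPM in erythroblasts and at 760, 814 and 765 CPM in KSL cells, and Flt3 at 0.10, 0 and 0.17 CPM against 365, 395 and 352 CPM. Procr, Robo4 and Emcn, markers of stem cells and endothelium, had no count in erythroblasts, and Procr was at least 1293-fold lower. All 22 tested markers of this kind were lower, Ly6e (−0.81) and Itga2b (−1.81) by less than 4-fold, and Kit and Ly6a are sort markers. The erythropoietin receptor moved the other way. Epor was at 1073, 977 and 959 CPM in erythroblasts and at 5.14, 3.95 and 3.81 CPM in KSL cells (7.86 ± 0.16 SE, edgeR adjusted p = 3.09e-15). Downstream of it, Jak2 rose by 2.93, while Stat5a was at 7.81, 6.71 and 10.1 CPM against 116, 125 and 116 CPM (−3.86). The feedback genes of this pathway were low in erythroblasts: Cish was at 2.05, 2.96 and 0.74 CPM against 129, 111 and 118 CPM, Socs2 fell by 7.44 and Socs1 by 6.49. Fam132b, which encodes erythroferrone, the signal by which erythroblasts draw iron from stores, rose by 3.68. Of 35 receptors and signalling genes tested, 6 were higher and 26 lower (4 and 29 under library totals, where Il1r1 and Pim1 turned lower). Early-acting and myeloid receptors accounted for 18 of the 26 lower genes, among them Csf3r (−6.08), Il3ra (−5.83) and Tgfbr2 (−4.16).

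Adhesion genes were mostly lower, 23 of 30 tested against 5 higher, with a median of −3.97. All 4 sphingosine phosphate receptors, which guide cells out of the marrow, were lower, from −5.45 (S1pr2) to −7.21 (S1pr4). Itga6 fell by 7.16, Itga5 by 6.34 and Selplg, the P-selectin ligand, by 6.85. Itga4, the alpha chain of VLA-4, by which erythroblasts hold to the central macrophage of an erythroblastic island, was at 1223, 1306 and 1510 CPM against 101, 124 and 105 CPM (3.61). Its partner Itgb1 was higher by 1.18 and turned lower under library totals. Cxcr4, the receptor for the niche chemokine CXCL12, was at 924, 837 and 763 CPM in erythroblasts and at 135, 140 and 136 CPM in KSL cells. Spp1 (osteopontin), named in the series title, was at 0, 0 and 0.083 CPM in erythroblasts and at 21.4, 3.71 and 3.98 CPM in KSL cells (−8.30 ± 2.18 SE, edgeR adjusted p = 0.0183). KSL replicate 1 was the high library, and without it the change was −6.95. The call was lost without erythroblast replicate 2 (−7.71) or 3 (−12.19).

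Genes of cell division were higher throughout the lists examined. All 30 mitosis genes rose at least 4-fold, from 2.81 (Cdc20) to 6.52 (Mki67), a median of 3.97. Ccna2 (cyclin A2) was at 2956, 2953 and 2976 CPM in erythroblasts and at 72.7, 101 and 110 CPM in KSL cells. Mki67, the proliferation marker Ki-67, was at 7191, 7935 and 17030 CPM in erythroblasts, where replicate 3 was the high library, against 115, 139 and 96.1 CPM in KSL cells (6.52 ± 0.47 SE). Cenpe and Cenpf were likewise highest in erythroblast replicate 3, and the cause was not tested. With the trend on transcript length removed, Mki67 changed by 5.82. All 32 DNA replication genes were higher, with a median of 2.35, but Dut, Gins2, Pold1, Rfc3 and Rfc5 turned lower under library totals. Rrm2, the limiting subunit of ribonucleotide reductase, was at 3190, 3174 and 3250 CPM in erythroblasts and at 34.5, 45.7 and 42.3 CPM in KSL cells (6.29 ± 0.15 SE, edgeR adjusted p = 1.12e-14). The loading factors Cdc6 and Orc1 rose by 4.52 and 4.13. The MCM helicase subunits rose by 1.57 (Mcm3) to 3.34 (Mcm2).

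Cyclins changed in opposite directions. Ccnd3, the D cyclin of the erythroid lineage, was at 2647, 2608 and 2686 CPM in erythroblasts and at 136, 153 and 126 CPM in KSL cells (4.26 ± 0.13 SE). Ccnd2 was at 2.83, 0.80 and 1.41 CPM against 500, 513 and 440 CPM (−8.22 ± 0.26 SE), and Ccnd1 fell by 4.55. Per kilobase, Ccnd3 and Ccnd2 stood at 1253 and 0.295 CPM in erythroblasts and at 65.4 and 84.9 CPM in KSL cells. Ccne1 rose by 6.36, while Cdk6 fell by 3.04 and Cdk4 by 1.65. Inhibitors of division were mostly higher as well: 7 of 10 were higher and 2 lower (6 and 4 under library totals). Cdkn1b (p27) was at 437, 374 and 402 CPM against 7.23, 11.2 and 12.1 CPM (5.33), Rb1 rose by 6.88, and Cdkn2c (p18) and Cdkn2d (p19) rose by 3.94 and 5.19. Cdkn1c (p57), an inhibitor that holds stem cells at rest, was at 0.49, 0.16 and 0.74 CPM against 29.7, 30.1 and 26.8 CPM. Cdkn1a (p21) did not pass the test (53.1 CPM against 42.7 CPM on average).

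Fanconi genes were mostly higher. Of 21 tested, 19 were higher and 2 lower (Ercc4 and Fance), with a median of 2.14, and of the 19 Fancb and Fancf turned lower under library totals. Fancd2, the gene deleted in the mutant mice of the series, was at 155.1, 168.6 and 163.6 CPM in wild-type erythroblasts and at 10.6, 11.8 and 13.4 CPM in wild-type KSL cells (3.78 ± 0.12 SE, edgeR adjusted p = 1.85e-13), and the groups did not overlap. Its partner Fanci rose by 1.88. Brca1 was at 580, 597 and 659 CPM against 22.7, 28.7 and 24.4 CPM, and Rad51c rose by 3.75. Among p53 genes 10 of 21 were higher and 8 lower (6 and 13 under library totals). Trp53 fell by 1.63, its inhibitors Mdm4 and Mdm2 rose by 3.498 and 1.22, and Mdm2 turned lower under library totals. The telomere-binding genes Terf1 and Pot1b rose by 3.77 and 3.60, and Tert, the catalytic subunit of telomerase, had no count in erythroblasts and was at 3.02, 3.06 and 3.33 CPM in KSL cells.

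Chromatin genes split, with 22 of 42 higher and 19 lower (14 and 26 under library totals). The maintenance methyltransferase Dnmt1 and its partner Uhrf1 rose by 2.79 and 3.58. The de novo enzymes were lower: Dnmt3b was at 0, 0.08 and 0.17 CPM against 161, 172 and 159 CPM (−10.86 ± 0.25 SE, edgeR adjusted p = 7.24e-15; −11.81 without erythroblast replicate 3), and Dnmt3a fell by 4.39. Tet3 rose by 2.88, while Tet1 and Tet2 fell by 7.09 and 3.19 (Tet1 −7.74 without erythroblast replicate 3). In polycomb, Ezh2 and Suz12 rose by 2.17 and 3.10, and Cbx8 and Bmi1 fell by 6.45 and 2.37. H2afy, which encodes macroH2A1, was at 30.4, 35.6 and 33.8 CPM in erythroblasts and at 1659, 1963 and 1422 CPM in KSL cells (−5.66 ± 0.15 SE). H2afx rose by 3.35. Genes whose symbols begin with Hist had a median of 2.21, the highest of 68 symbol families of at least 15 tested genes, but most replication-dependent histone transcripts lack the poly(A) tail by which the oligo(dT) beads of the library method select RNA.

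Genes for survival and for clearing the cell changed member by member. Bcl2l1, which encodes BCL-XL, was at 720, 510 and 652 CPM in erythroblasts and at 35.8, 33.1 and 29.6 CPM in KSL cells (4.25 ± 0.15 SE). Bcl2 was at 0.29, 0.08 and 0.58 CPM against 52.7, 73.4 and 62.0 CPM (−7.62 ± 0.29 SE, and −8.47 without erythroblast replicate 3). Of 15 tested members of the family, 7 were higher and 7 lower (5 and 9 under library totals). Bnip3l (NIX), which marks mitochondria for removal in reticulocytes, rose by 2.98, while its relative Bnip3 fell by 6.67. Among mitophagy and autophagy genes 13 of 24 were higher and 9 lower (9 and 14 under library totals), led by Wipi1 (4.95), Atg4a (4.17) and Atg9a (3.62). The ubiquitin enzymes of late red cell formation were higher in 14 of 16 cases. Trim10 was at 2946, 2515 and 2507 CPM against 0.14, 0.04 and 0.59 CPM. Ube2l6 rose by 5.76, Ube2o, which drives the remodelling of the reticulocyte proteome, by 5.59, and Trim58, which promotes enucleation, by 5.09. Xpo7, a nuclear exporter needed for nuclear condensation, was at 2773, 1897 and 2773 CPM against 73.0, 80.7 and 82.7 CPM. Rac2 and Diap2 fell by 2.82 and 4.31, and Rac1 did not pass the test.

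Ribosomal protein genes were lower in 56 of 75 cases and higher in 4 (72 and 0 under library totals), with a median of −1.25 against −0.67 over all genes. Without TMM scaling, they took 0.622% to 0.694% of counts in erythroblasts against 3.29% to 4.30% in KSL cells. As for Gapdh, some members had almost no counts in either population, such as Rps27 (0.080 CPM against 0.456 CPM on average), so the level of the group is uncertain. Rps14 was at 350, 305 and 286 CPM against 1852, 1341 and 1002 CPM, and Rps19, the gene most often mutated in Diamond-Blackfan anemia, at 33.6, 27.3 and 26.1 CPM against 209, 165 and 106 CPM. Rpl8 did not pass the test, at 1627, 1553 and 1485 CPM against 1941, 1697 and 1359 CPM. Of the 4 higher genes, Rpl24 (2.20) stood near 1 CPM, and Rpl41 (0.78), Rpl36a (1.22) and Rps29 (1.17) turned lower under library totals. Short transcripts as a whole were lower, and with the length trend removed the median of this group lay 0.48 below that of all genes instead of 0.58. Nucleolar genes fell in 11 of 15 cases, among them Wdr12 (−3.70), Polr1b (−3.04) and Npm1 (−2.21). Translation factors were higher in 9 of 14 cases (6 under library totals). Eif2ak1, the heme-regulated kinase that halts translation when heme is short, was at 1882, 1668 and 1833 CPM against 33.3, 37.0 and 31.8 CPM (5.72 ± 0.13 SE). Pabpc4 rose by 4.23. Respiratory chain genes were close to equal after TMM scaling, with 40 of 68 higher, 11 lower, 2 past 4-fold and a median of 0.36. Under library totals 3 were higher and 54 lower, with a median of −1.06. Cholesterol genes divided evenly, 10 of 22 higher and 10 lower, and 2 and 18 under library totals.

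**Figure D4:**
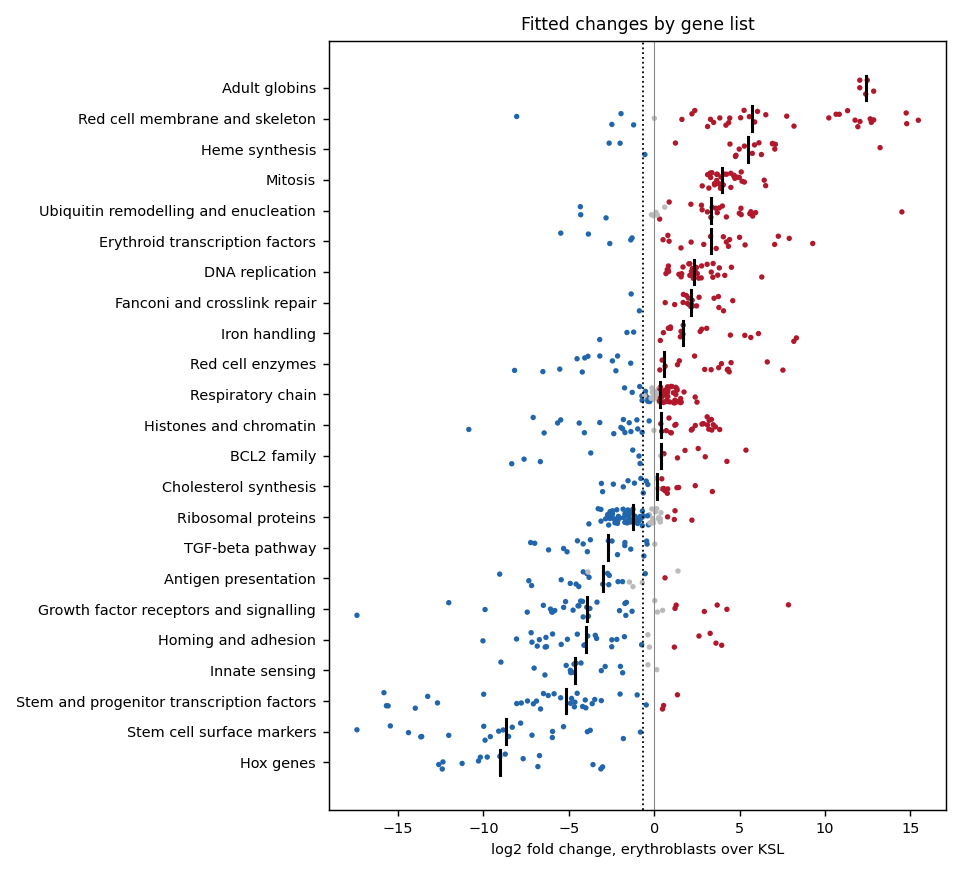
Each point is a tested gene at its fitted log2 change of erythroblasts over KSL (x axis), in red where called higher, blue where called lower and grey where not called, for 23 gene lists. Black bars are list medians and the dotted line is the median of all genes (−0.67). Changes of genes at 0 in a group are fitted values and not bounds.

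Genes of antigen presentation were mostly lower in erythroblasts, by amounts that differed between libraries. H2-K1, a classical class I heavy chain, was at 326, 79.6 and 74.5 CPM in erythroblasts and at 2552, 2681 and 2150 CPM in KSL cells (−3.95 ± 0.79 SE, edgeR adjusted p = 0.00739). Erythroblast replicate 1 was the high library. B2m, the class I light chain, was at 1475, 281 and 279 CPM against 1566, 1655 and 1604 CPM and did not pass the test (−1.25 ± 0.82 SE, edgeR adjusted p = 0.211). H2-D1 was at 903, 172 and 176 CPM against 1163, 1291 and 965 CPM and did not pass either. Tap1, the peptide transporter, was at 82.8, 10.5 and 13.0 CPM against 282, 334 and 231 CPM. Of 13 class I genes 8 were lower and 1 higher (Tapbp, by 0.62, lower under library totals), and of 10 class II genes 9 were lower. Without erythroblast replicate 1, 11 class I genes were lower and 2 higher, all 10 class II genes were lower, H2-K1 changed by −4.99, and B2m changed by −2.52 and passed the test. Without KSL replicate 2, 5 class I and 6 class II genes were lower, and without erythroblast replicate 3, 7 and 5. Hsp90ab1 was likewise highest in erythroblast replicate 1, at 953, 452 and 448 CPM in erythroblasts against 2931, 2941 and 2637 CPM in KSL cells. In the oxymetholone erythroblasts replicate 3 was the high library for H2-K1 (199 CPM) and B2m (1000 CPM). Replicates 1 and 2 held 101 and 79.1 CPM of H2-K1 and 460 and 328 CPM of B2m. Hsp90ab1 was not highest in that library, at 417, 469 and 434 CPM in replicates 1 to 3. Each erythroblast library came from a single mouse, and mouse and library cannot be told apart.

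**Figure D5:**
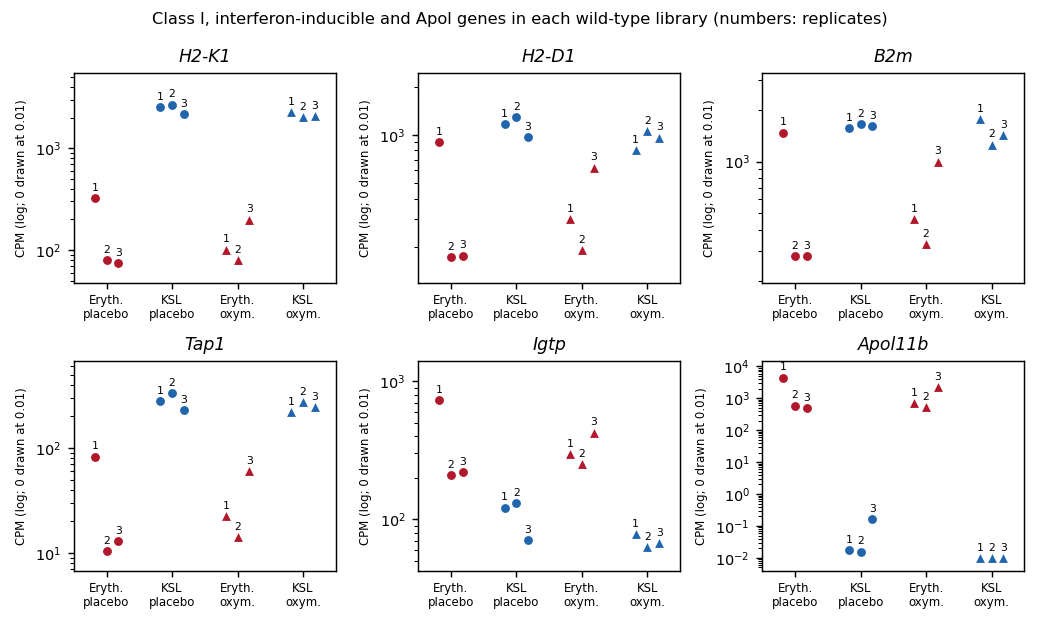
CPM (log axis) of 6 genes in the 12 wild-type libraries, erythroblasts in red and KSL cells in blue, placebo as circles and oxymetholone as triangles, numbered by replicate. Erythroblast replicate 1 on placebo and replicate 3 on oxymetholone are the high erythroblast libraries in all 6 panels.

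The interferon-induced genes were lower in 19 of 30 cases and higher in 5 (25 and 2 under library totals), with a median of −1.61. Irf1 (−5.90), Gbp2 (−6.401) and Trim30a (−6.68) were lower (without erythroblast replicate 1, −7.25 for Gbp2 and −7.36 for Trim30a). A pair of genes went strongly the other way. Rsad2, which encodes viperin, was at 953, 523 and 764 CPM in erythroblasts and at 4.42, 6.09 and 6.55 CPM in KSL cells (7.05 ± 0.29 SE, edgeR adjusted p = 1.49e-08). Isg15 was at 204, 74.3 and 75.0 CPM against 5.51, 8.64 and 4.41 CPM (4.18, and 3.54 without erythroblast replicate 1). Igtp was at 729, 210.0 and 218 CPM against 122, 131 and 70.5 CPM and did not pass the test (edgeR adjusted p = 0.0538). Without erythroblast replicate 1, 22 genes were lower and 6 higher. Innate sensors were lower in 14 of 16 cases, among them Tmem173 (STING), at 0.20, 0.40 and 0.25 CPM against 156, 157 and 125 CPM, and Casp1 (−7.03, which was −8.11 without erythroblast replicate 1 and −6.397 without replicate 2). Aim2 and Ticam1 did not pass the test (edgeR adjusted p = 0.0645 and 0.316).

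TGF-beta genes were lower in 18 of 19 cases. Smad1 fell by 7.24, Smad4 by 4.50 and Eng, the co-receptor endoglin, by 3.92, and Tgfbr1 did not pass the test. Immediate early genes were lower in 13 of 17 cases, led by Dusp2 (−9.78), while Dusp1 was higher at 812, 358 and 307 CPM against 26.1, 14.3 and 26.1 CPM. Egr1 was uneven among KSL libraries, at 58.1, 9.90 and 86.0 CPM, against 2.54, 1.28 and 1.57 CPM in erythroblasts. RNA-binding proteins were higher in 11 of 18 cases (5 under library totals). Cpeb4, a regulator of translation in terminal red cells, was at 533, 480 and 475 CPM against 0.63, 0.20 and 0.21 CPM (10.60 ± 0.36 SE, edgeR adjusted p = 3.29e-09; 11.25 without KSL replicate 1 and 9.89 without replicate 2), and Rbm38 rose by 3.88. Celf2 fell by 6.90 and Msi2, a stem cell regulator, by 3.63.

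Some genes were counted in a single population. With a mean of at least 5 CPM in erythroblasts, 9 genes had no count in the KSL libraries, where 0 allows up to 0.0112 CPM over the group. They were led by Apol11a, Slc6a20a, Nhlrc4, Aldh3b2 and Artn. Slc6a20a, an amino acid transporter gene, was at 81.5, 82.8 and 81.1 CPM, at least 7285-fold higher. In the opposite direction 216 genes with a mean of at least 5 CPM in KSL cells had no count in erythroblasts. The counts of 9 and 216 cannot be set against each other, because the erythroblast libraries together were shallower and a 0 there allows up to 0.0861 CPM. Among their most abundant members in KSL cells were Ifitm1 (695, 610 and 411 CPM), Dntt, the lymphoid template-independent polymerase (224, 218 and 132 CPM), Fam69b and Krt18. Ifitm1 was at least 6643-fold lower. Several Apol genes, of the apolipoprotein L family, rose strongly. Apol8 was at 1134, 971 and 1076 CPM in erythroblasts and at 0.14, 0 and 0.16 CPM in KSL cells. Apol11b was at 4479, 593 and 507 CPM against 0.02, 0.02 and 0.16 CPM, and Apol11a at 727, 91.0 and 70.7 CPM against 0, so that erythroblast replicate 1 was again the high library. The call of Apol11a (edgeR adjusted p = 0.0422) was lost without KSL replicate 2 or erythroblast replicate 2 or 3, and Apol10a, which did not pass the test, passed it without erythroblast replicate 1 and not without any other single library. It also passed with DESeq2, with limma voom and quality weights, with limma on the deposited score and in the fit of 12 wild-type libraries.

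Among genes outside the lists, the largest gains in CPM were those of Cd24a, a surface glycoprotein of erythroblasts and other immature cells, at 16920, 16400 and 14980 CPM against 225, 191 and 239 CPM, and of Hemgn (hemogen), at 7677, 7432 and 8366 CPM against 40.6, 39.3 and 47.6 CPM. The largest losses outside them included Gpr56, an adhesion receptor of stem cells, at 0.88, 1.04 and 2.65 CPM against 1062, 1112 and 1044 CPM (−9.44 ± 0.25 SE, and −10.13 without erythroblast replicate 3). Coro1a, an actin regulator of leukocytes, was at 9.08, 4.24 and 5.62 CPM against 916, 847 and 713 CPM. Txnip, which restrains glucose uptake, fell by 3.01 and Lars2 by 3.79. Genes near 0 in KSL cells that are best known from other tissues were also higher: Reln, which encodes the secreted protein reelin, was at 170, 143 and 165 CPM against 0.04, 0 and 0 CPM, and the calcium channel gene Cacna1g at 205, 211 and 210 CPM against 0.02, 0 and 0.05 CPM. Among symbol families, the highest medians after Hist were those of Cep (centrosome, 2.10), Nup (nuclear pore, 1.78) and Cdc (1.598), and the lowest were Cyp (cytochrome P450, −6.53), Arhgef (−5.31) and Dusp (−4.08).

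Markers of other marrow cells were read for both populations. Of 12 late granule genes of neutrophils, 9 were higher in erythroblasts: Ngp was at 124, 79.9 and 87.2 CPM against 5.14, 5.403 and 8.60 CPM, and Ltf, Camp, Lcn2, S100a8 and S100a9 rose by 2.58 to 3.94. Of 6 genes listed for early (azurophil) granules, 2 were higher and 3 lower (1 and 4 under library totals). Mpo was at 11.6, 9.83 and 10.3 CPM in erythroblasts and at 607, 764 and 565 CPM in KSL cells. Elane averaged 3.55 CPM in erythroblasts and 0.863 CPM in KSL cells. The neutrophil list summed to 283 to 449 CPM in erythroblasts and to 752 to 1004 CPM in KSL cells, and none of its 18 genes was at 0 in either. Of 17 macrophage genes 11 were higher and 2 lower (Ctss and Lyz2). C1qa was at 28.3, 15.5 and 12.6 CPM against 2.53, 2.51 and 1.99 CPM, highest in erythroblast replicate 1, and Vcam1 and Siglec1 rose by 3.27 and 5.46. Summed, the macrophage list gave 230 to 344 CPM in erythroblasts and 241 to 307 CPM in KSL cells. The part of macrophages and neutrophils in the values of these and other genes was not tested. B cell genes summed to 4.40 to 6.93 CPM in erythroblasts and 50.2 to 75.1 CPM in KSL cells, with Rag1 and Rag2 at 0 in erythroblasts. T and NK genes summed to 62.0 to 68.8 CPM and 119 to 170 CPM, mostly from Lck in erythroblasts, and Cd3e was at 0 in KSL cells. Of 13 megakaryocyte genes 10 were lower, with Ppbp and Selp at 0 in erythroblasts, while Tubb1, a tubulin of platelets that erythroblasts also make, was at 458, 530 and 544 CPM against 0.21, 0.24 and 0.21 CPM. Mast cell genes were lower in 4 of 7 cases, and Il1rl1, the IL-33 receptor, was higher at 177, 185 and 137 CPM against 0.53, 0.05 and 0.05 CPM. Stromal and endothelial genes were lower in 6 of 9 cases, with Kdr and Emcn at 0 in erythroblasts, and Vwf was higher by 2.65.

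The oxymetholone libraries, which share none with the placebo comparison, gave calls in the same direction for 4550 of the 4665 genes higher on placebo (97.5%) and for 6529 of the 6739 lower (96.9%) by edgeR. In that set 91.5% of 12518 genes tested were called. The labels pair the KSL libraries of both diets, and the pooling (5 mice against 1) was the same. The second set therefore shares these features of the design and cannot separate population from pooling. Gata1 rose by 7.48, Alas2 by 15.06, Epor by 7.98 and Fancd2 by 3.77, and Gata2 fell by 10.97. B2m (−1.31) was called there, at an edgeR adjusted p of 0.0499, and H2-D1 (−1.34) missed at 0.0502. Slc4a1 changed by 18.10, with 0.057, 0.20 and 0.12 CPM in the KSL libraries, against 15.46 on placebo, where KSL replicate 3 held 4.41 CPM.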

How the data were processed

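RNA of sorted mouse bone marrow cells was selected with oligo(dT) beads and sequenced from TruSeq libraries, per the labels' protocols. The authors deposited a table of raw read counts per transcript row for 20 libraries, and a second table of normalized values, treated here as a score because every column has the same total. Bowtie, edgeR and the mm9 build are named in the submitters' processing notes; neither versions nor strand settings nor the handling of multiply mapped reads are given in the sources used here. No column of per-sample values was left unused.

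For each of 20377 symbols, the row with the largest total over all libraries was kept from 26005 rows. Counts of 3 erythroblast and 3 KSL placebo libraries were filtered with filterByExpr, scaled by TMM and tested with edgeR 4.0.16 (quasi-likelihood, robust, R 4.3.3), and p-values were adjusted by Benjamini-Hochberg over all 12538 tested genes. The oxymetholone libraries were fitted separately in the same way. The libraries of a group are separate mice (erythroblasts) or separate pools of mice (KSL) as far as the labels tell, and p-values measure the spread between them. On simulated counts with 200 changed genes, this contrast's test called 94% of 100 genes changed by 1 log2 unit, 100% of 100 changed by 2, and 0.136% of unchanged genes, over 11951 genes tested. Only 200 of those 11951 genes differed, whereas 91% of tested genes were called in the placebo libraries. The share of unchanged genes called when most genes differ, or when the scaling shifts, was not tested. Limits for a count of 0 are 3 counts over the group and cover counting error only. Transcript lengths came from the longest GENCODE transcript of each symbol (98.92% of tested genes).

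The gene lists were chosen with earlier results of these data known, so their counts are descriptions. Genes to be named were the 15 largest changes and CPM gains or losses in each direction, up to 3 per list and direction, members of a list at least 4-fold against its majority, 8 per direction among genes counted in a single population, and Fancd2, Spp1 and the sort genes. Other members are named for their role and were chosen after their values were seen. Alternatives covered scaling, filter, tool (DESeq2 1.42.0, limma 3.58.1), the deposited score on a log2(score + 1) scale, row choice, depth, the 12 wild-type libraries in 1 fit, and leaving out each library. Removal of the length trend was added after seeing the data.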

Additional observations from a re-analysis of the deposited data

How the results depend on the processing

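Scaling by library totals gave 2380 genes higher, 961 of them at least 4-fold, and limma on the deposited score gave 2438 and 975, against 4665 and 2055 with TMM. The first of these differs from the reported fit by the composition factor alone, and the second also by tool, values and transform. Among the 274 genes named by the rules above, the sign turned under library totals for Ikzf1 (−0.066), Itgb1 (−0.25), Lyl1 (−0.87), Nfe2l2 (−0.94), Rpl36a (−0.175), Rps29 (−0.22) and Tapbp (−0.79). On the score it turned for Ikzf1 (−0.016), Itgb1 (−0.195), Lyl1 (−0.81), Nfe2l2 (−0.89), Rpl36a (−0.019) and Tapbp (−0.735). Other list members also turned under library totals, among them 34 respiratory chain genes. The numbers of genes lower, and all 4 counts under the other alternatives run, stayed within 1.5 times. Without 1 library in turn, 4577 to 4657 genes were higher and 6694 to 6895 lower. With the length trend removed, 4661 genes were higher and 6614 lower, and all 273 named changes that could be fitted kept their direction and call. Without the filter on low counts, 37 of 42 list medians, set against all genes, moved by more than their spread. No paired analysis was possible because the labels pair no erythroblast library with a KSL library. Genes with processed copies or near-identical relatives are uncertain, and low genes are limited by the smallest library (10777291 counts).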
